A study of Mus musculus with 21 samples.

Results

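The mannose receptor gene Mrc1 and 9 related C-type lectin genes were followed in macrophages that lack the mannose receptor, during a day of exposure to a soluble form of that receptor. The members were chosen by name, with earlier results of these data known: Mrc1, Mrc2, Clec4e, Clec4d, Clec4n, Clec7a, Clec10a, Mgl2, Cd209a and Clec4a2. All 10 were found among the 23250 genes of the count table, and 9 of them passed the low-count filter that left 13468 genes for testing. Mrc1 did not pass.

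The cells were mouse bone marrow cultures on a C57BL/6J background, grown for 7 days with GM-CSF supplied as supernatant of a producing cell line. The series' design text states that the macrophages are mannose receptor deficient, and the deficiency is shared by all groups, so the data hold no wild-type macrophages. The labels do not give the allele. FcMR, a fusion of the human IgG1 Fc part with the extracellular part of the mannose receptor, or an isotype control protein, was present for 4, 12 or 24 h, and untreated cells were taken at 0 h. The 7 groups (untreated at 0 h, and FcMR and isotype at each of the 3 later times) hold 3 libraries each, 21 in all. The labels do not say whether the libraries of a group came from separate mice or cultures, so p-values measure the spread between these libraries, which may be technical.

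C-type lectins are receptors with a carbohydrate recognition domain, a fold that in many of them binds sugars with the help of calcium. Macrophages and dendritic cells use them to take up glycosylated material and to sense fungi, mycobacteria and dying cells. Some members signal through the adaptor Fc receptor gamma chain, or their own tail, to the kinase Syk and the adaptor Card9 (Mincle, MCL, Dectin-2 and Dectin-1, encoded by Clec4e, Clec4d, Clec4n and Clec7a). Clec4a2 encodes DCIR, which carries an inhibitory tail motif. Others are mainly uptake receptors: the galactose-type lectins of Clec10a and Mgl2, the DC-SIGN relative of Cd209a, the mannose receptor itself and its collagen-binding relative Endo180, encoded by Mrc2.

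Total estimated counts ranged from 5532225 to 66729533 per library, so that the level of 3 counts lay between 0.045 and 0.542 CPM (the count as a share of the library's total, brought to a fixed scale). Levels are in CPM after TMM scaling, which evens out differences in library composition. Replicate libraries correlated at 0.92 to 0.987 over genes. Libraries differed in how counts depended on the GC content of transcripts. The mean log2 deviation of the 10% of genes richest in GC less that of the 10% poorest ranged from -1.591 to 0.642 in the isotype 4 h libraries and from -0.545 to -0.206 in the FcMR 4 h libraries. At 12 h it ranged from 0.582 to 0.82 in isotype and from -0.731 to 0.797 in FcMR. At 24 h the ranges were -0.089 to -0.028 in isotype and -1.263 to 0.41 in FcMR. All 9 macrophage and monocyte markers were in the table, with a summed level of 20912 to 35695 CPM across the 21 libraries. Lyz2 alone, at 16643 to 30533 CPM, made up most of that sum. The other markers of the list had medians of 89 (Mertk) to 921 CPM (Csf1r). Dendritic cell and granulocyte markers were present as well and are given further on. Lymphocyte markers (5 of 6 in the table) summed to 1.54 to 5.78 CPM.

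The transcript of Mrc1 was at or near 0 in every group. Mrc1 (ENSMUSG00000026712.3, GENCODE M21 on GRCm38, chromosome 2, 14229392 to 14332057, plus strand) had 3, 9 and 3 counts in the untreated libraries. It had 4, 0 and 0 counts in isotype and 0, 11 and 2 in FcMR at 4 h, and 3, 0 and 10 in isotype and 5, 4 and 1 in FcMR at 12 h. At 24 h the isotype libraries had 6, 4 and 4 counts and the FcMR libraries 0, 4 and 2. The untreated mean was 0.059 CPM per kilobase of transcript, the lowest but 1 of the members. The 24 h groups did not overlap in CPM (0.429 to 0.589 in isotype, 0 to 0.244 in FcMR), but these are a handful of counts and were not tested. The fusion protein is added as protein and brings no transcript. No library stood out as expressing Mrc1.

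In untreated cells the members covered a wide range of levels, compared here as CPM per kilobase of the longest coding transcript. Clec4n was highest at 1759, followed by Mgl2 at 690.4 and Clec7a at 611. Clec4e at 160.5, Clec4d at 91.1, Clec4a2 at 80.1 and Clec10a at 46.1 formed the middle, Cd209a stood at 10.7, and Mrc2 was lowest at 0.0126. Over 3 libraries the SD was 65.2 for Mgl2 and 52.7 for Clec7a, and 9.26 for Clec4d and 6.48 for Clec4a2, so that these 2 pairs of neighbours in the order lie within the sum of their SDs. The order also depends on the transcript length used. Annotated transcripts run from 707 to 2277 bases for Clec7a and from 729 to 2518 for Clec4e, and counts per gene do not tell which was expressed.

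FcMR raised Clec4e at every time and lowered Clec4a2 at every time, relative to the isotype control. Clec7a was lowered at 4 and 12 h, Clec4d was raised at 12 and 24 h and Clec10a was lowered at 24 h. Clec4n, Mgl2, Cd209a and Mrc2 passed the test at no time. At an adjusted p under 0.05 by edgeR's quasi-likelihood test, 3 of the 9 tested members were called at 4 h, 1 higher and 2 lower, where 17.7% of all genes tested were called (8.62% higher and 9.13% lower). At 12 h 4 members were called, 2 higher and 2 lower, beside 16.1% of all genes (8.61% higher and 7.49% lower). At 24 h 4 members were called, 2 higher and 2 lower, beside 20.9% of all genes (11.4% higher and 9.44% lower). Groups did not overlap for 6 tested members at 4 h, 5 at 12 h and 4 at 24 h, where 29.7%, 35.4% and 34.4% of all genes did not overlap. The members, and the lists of genes given further on, were chosen with earlier results of these data known. Their counts beside these shares are therefore no test of the members or lists as a set.

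**Figure D1:**
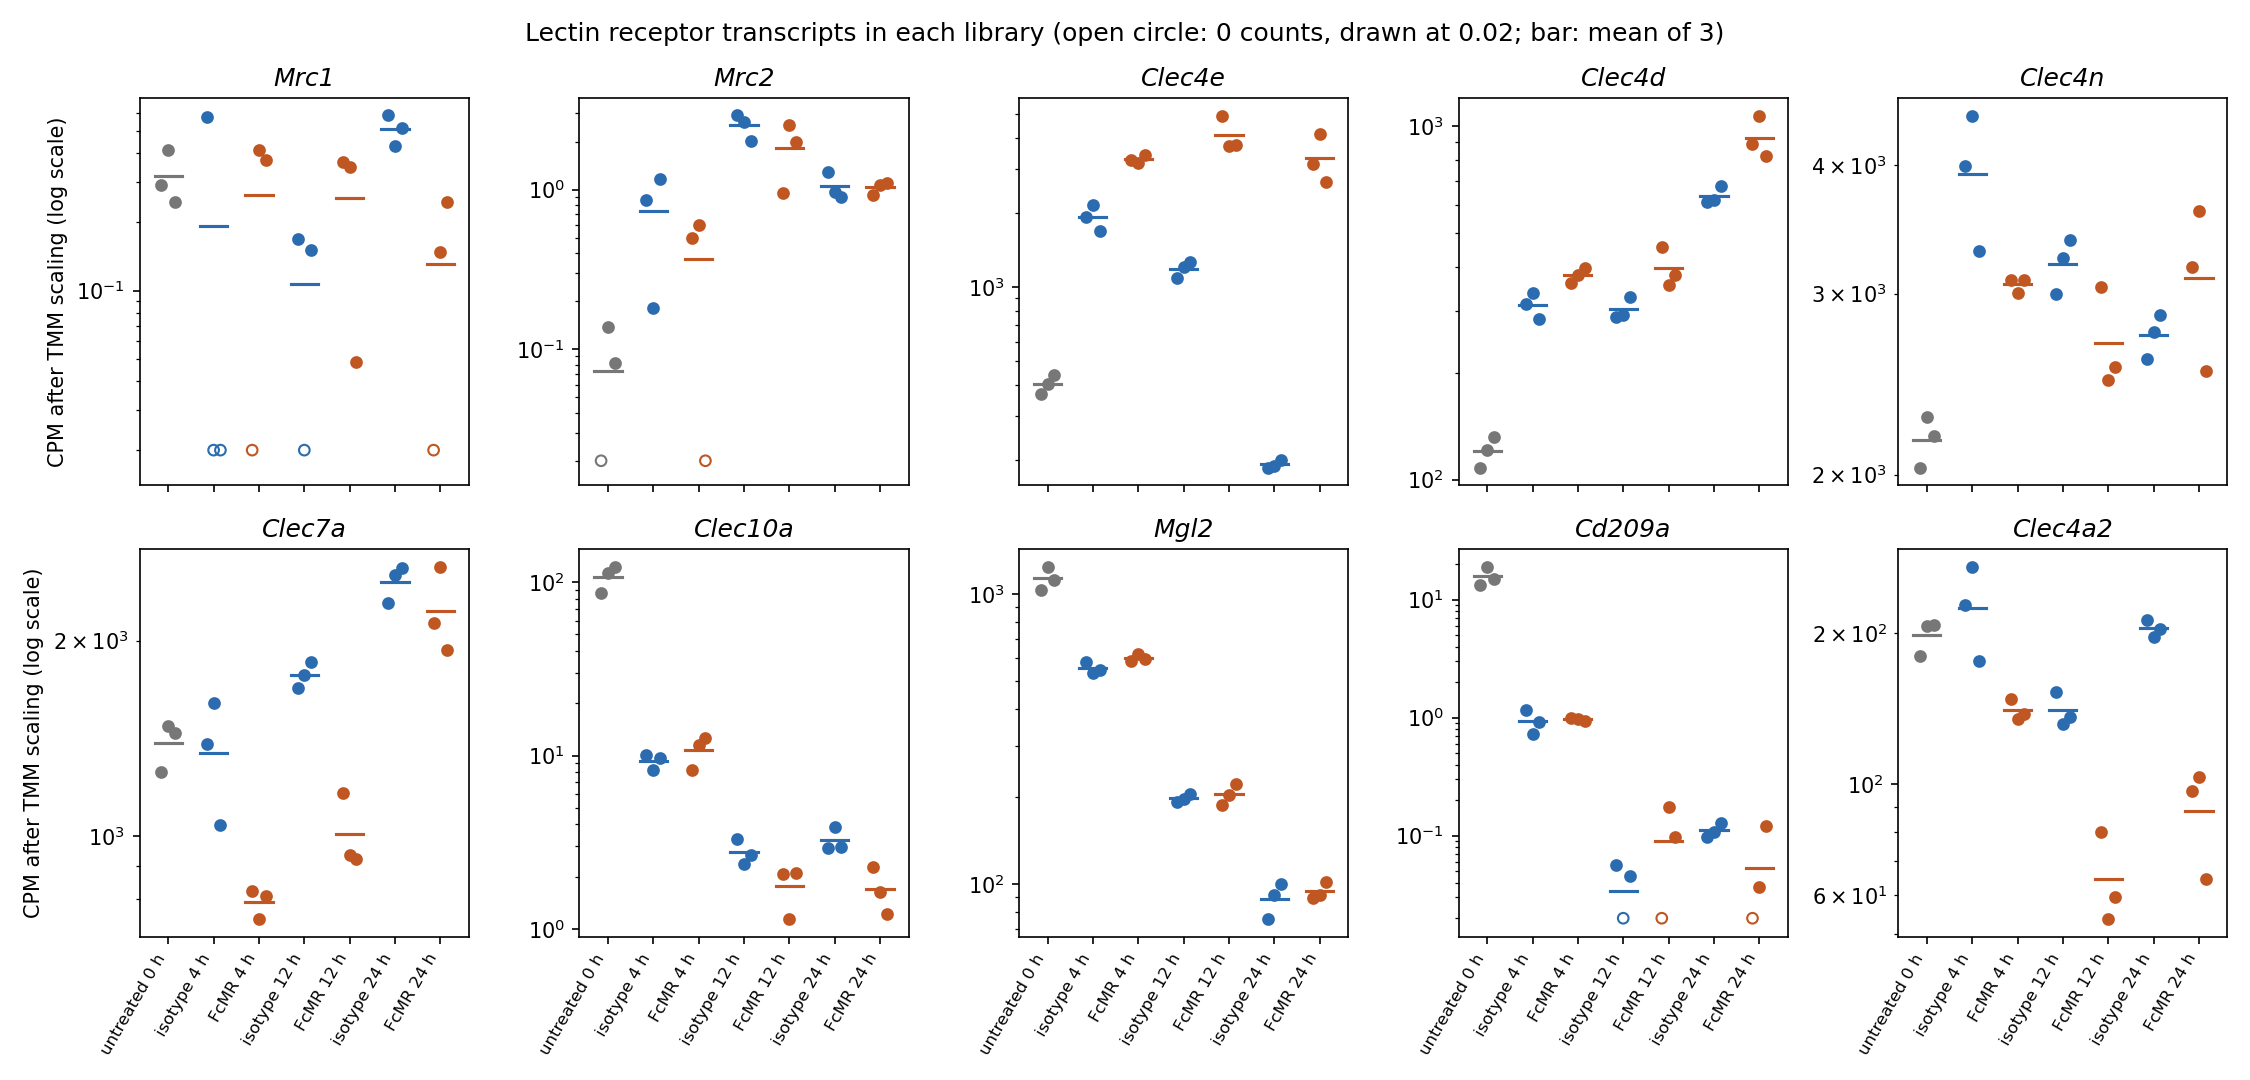
Level of each of the 10 lectin genes in every library, in CPM on a log axis that differs between panels, by group (grey untreated, blue isotype, orange FcMR). Points are libraries, horizontal bars are group means of 3, and an open circle marks a library with 0 counts, drawn near the foot of the axis. Clec4e separates FcMR (3157, 4161 and 2666 CPM at 24 h) from isotype (185, 189 and 199), while Mgl2, Clec10a and Cd209a fall in both.

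The promoters of the 4 genes that FcMR changed at 2 or more times are shown because these are the members whose regulation the results turn on. Each window runs from 250 bases before to 50 bases after the RefSeq start in GRCm38.p6. Capitals mark matches to any of 6 motifs searched on both strands. Clec4e spans chr6:123289822-123290121 on the minus strand, Clec4d chr6:123261857-123262156 on the plus strand, Clec7a chr6:129472730-129473029 on the minus strand and Clec4a2 chr6:123122440-123122739 on the plus strand.
Clec4e: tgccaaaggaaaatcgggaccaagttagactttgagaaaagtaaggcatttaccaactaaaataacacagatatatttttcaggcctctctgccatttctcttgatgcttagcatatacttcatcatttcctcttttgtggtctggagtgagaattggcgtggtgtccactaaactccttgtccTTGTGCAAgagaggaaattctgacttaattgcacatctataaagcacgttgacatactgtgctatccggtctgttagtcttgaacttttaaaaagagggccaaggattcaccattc
Clec4d: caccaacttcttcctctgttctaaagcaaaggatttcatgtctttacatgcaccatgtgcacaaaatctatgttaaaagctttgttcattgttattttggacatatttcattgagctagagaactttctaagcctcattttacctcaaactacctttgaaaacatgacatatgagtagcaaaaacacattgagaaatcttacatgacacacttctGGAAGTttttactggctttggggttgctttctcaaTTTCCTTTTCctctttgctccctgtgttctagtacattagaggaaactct
Clec7a: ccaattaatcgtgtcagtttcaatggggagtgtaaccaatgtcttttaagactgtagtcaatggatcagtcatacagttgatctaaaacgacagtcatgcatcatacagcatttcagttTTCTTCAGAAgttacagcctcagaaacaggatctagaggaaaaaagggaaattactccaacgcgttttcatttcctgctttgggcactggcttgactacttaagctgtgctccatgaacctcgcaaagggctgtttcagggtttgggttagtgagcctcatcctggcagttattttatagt
Clec4a2: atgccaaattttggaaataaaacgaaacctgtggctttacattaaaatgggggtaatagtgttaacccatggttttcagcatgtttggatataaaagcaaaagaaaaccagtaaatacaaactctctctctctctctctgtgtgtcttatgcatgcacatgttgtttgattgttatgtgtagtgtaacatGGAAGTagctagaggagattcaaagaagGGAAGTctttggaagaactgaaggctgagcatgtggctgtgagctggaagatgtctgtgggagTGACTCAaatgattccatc
The windows hold a C/EBP match (TTGCNNAA) 66 bases before the start of Clec4e and a STAT6-type match (TTC and GAA 4 bases apart) 131 bases before the start of Clec7a. Clec4d has a PU.1 core (GGAAGT) 35 bases before the start and an interferon-type match (GAAA and GAAA 2 bases apart) at the start itself. Clec4a2 has PU.1 cores 60 and 32 bases before the start and an AP-1 match (TGANTCA) 31 bases after it. The printed matches do not overlap one another. Over 32851 RefSeq windows of the same length, 10.8% hold the C/EBP motif, 6.95% the STAT6-type, 23.8% the PU.1 core, 3.44% the interferon-type and 7.81% the AP-1 motif. The kappaB motif, held by 8.46% of windows, was in none of the windows found for the members. RefSeq windows were found for 7 of the 10 members, 2 of them for Clec7a. The start of Clec4a2 in RefSeq lies inside the longer GENCODE gene.

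Clec4e encodes Mincle, a receptor for mycobacterial cord factor and for products of dying cells (ENSMUSG00000030142.10, chromosome 6, 123281789 to 123289870, minus strand). Its level was 368, 405 and 439 CPM in untreated cells. At 4 h it was 1927, 2140.1 and 1677 CPM with isotype and 3277, 3162 and 3420.2 CPM with FcMR. All FcMR libraries were above all isotype libraries, and both groups were above the untreated cells. At 12 h isotype gave 1089.5, 1203 and 1264 CPM and FcMR 4937, 3712 and 3743 CPM. At 24 h isotype had dropped to 185, 189 and 199 CPM, below every untreated library, whereas FcMR gave 3157, 4161 and 2666 CPM. The FcMR groups stayed high through the day, and the isotype groups came down. The log2 difference was 0.78 (SE 0.143, edgeR adjusted p = 0.000884) at 4 h, 1.80 (SE 0.146, adjusted p = 1.12e-07) at 12 h and 4.12 (SE 0.161, adjusted p = 8.24e-12) at 24 h, or 1.72-fold, 3.48-fold and 17.4-fold. The difference itself differed between the times (edgeR joint test, adjusted p = 7.5e-08), and Clec4e was the member of the 9 tested that passed that test, where 11% of all genes did. In the isotype cells alone, Clec4e was above untreated by 2.24 at 4 h and 1.55 at 12 h on the log2 scale and below it by 1.08 at 24 h (edgeR adjusted p = 1.61e-09, 1.25e-07 and 9.28e-06).

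Clec4d encodes MCL, the partner with which Mincle forms a receptor pair, and is the next gene in the cluster (ENSMUSG00000030144.4, chromosome 6, 123262111 to 123275265, plus strand). It rose in both treatments and more so with FcMR. From 108, 121 and 132 CPM untreated it went to 314, 337 and 284 with isotype and 359, 379 and 397 with FcMR at 4 h. At 12 h it was 289, 293 and 329 with isotype and 455, 355 and 379 with FcMR, and at 24 h 609, 618 and 678 with isotype and 893, 1071 and 822 with FcMR. FcMR libraries were above isotype libraries at every time without overlap, although the groups lay close together at 4 and 12 h. The log2 difference was 0.28 at 4 h (SE 0.113, edgeR adjusted p = 0.101), 0.38 at 12 h (SE 0.113, adjusted p = 0.0258) and 0.55 at 24 h (SE 0.113, adjusted p = 0.00159). The 12 h call was lost without FcMR replicate 1 (0.27 on the log2 scale, adjusted p = 0.173) or without isotype 12 h replicate 1 or 2 (adjusted p = 0.123 and 0.106), and the 4 h difference passed with a GC correction, DESeq2 or no expression filter (adjusted p = 0.00178, 0.0371 and 0.0494). Using only the libraries compared also ended the 12 h call (edgeR adjusted p = 0.0768). The joint test gave an adjusted p of 0.524 for Clec4d, so its difference was not shown to change with time.

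Clec4n, encoding Dectin-2, a receptor for fungal mannans, lies on the other side of Clec4d (ENSMUSG00000023349.14, chromosome 6, 123229843 to 123247021, plus strand). At 4 h it was 3992, 4468 and 3297 CPM with isotype and 3093, 3003 and 3089.7 with FcMR. Isotype lay above FcMR without overlap at that time. At 12 h the ranges overlapped, at 2994 to 3379 CPM with isotype and 2472 to 3044 with FcMR, and at 24 h FcMR spread over 2523 to 3607 around isotype at 2589.9 to 2860.3. The log2 differences of -0.36, -0.26 and 0.18 did not pass (edgeR adjusted p = 0.0548, 0.196 and 0.347). Without isotype 4 h replicate 3 the 4 h difference passed (adjusted p = 0.0116), as it did with a GC correction (0.00239). In the isotype cells Clec4n was above the untreated range of 2030.5 to 2273 CPM by 0.86, 0.57 and 0.34 on the log2 scale at 4, 12 and 24 h (edgeR adjusted p = 2.84e-05, 0.0012 and 0.0349). The 24 h call was lost when untreated replicate 1 or 3, or isotype 24 h replicate 2 or 3, was left out.

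Clec7a encodes Dectin-1, the receptor for fungal beta-glucans (ENSMUSG00000079293.11, chromosome 6, 129461591 to 129472779, minus strand). GENCODE M21 gives it the biotype polymorphic pseudogene. At 4 h it was 1385, 1605 and 1041 CPM with isotype and 824, 746 and 808 with FcMR. At 12 h it was 1693, 1768 and 1857 with isotype and 1167, 937 and 921 with FcMR. FcMR was below isotype without overlap at both times, and also below the untreated libraries of 1254, 1477 and 1442 CPM. At 24 h the FcMR libraries (2131, 2599 and 1935 CPM) overlapped the isotype libraries (2284, 2519 and 2589.6 CPM), and both groups were above untreated. The log2 difference was -0.76 at 4 h (SE 0.14, edgeR adjusted p = 0.000916), -0.81 at 12 h (SE 0.14, adjusted p = 0.00042) and -0.15 at 24 h (SE 0.139, adjusted p = 0.525). The joint test of a change between the times gave an adjusted p of 0.052, so a return of Clec7a by 24 h was not shown. The joint test passed without FcMR 12 h replicate 1, isotype 4 h replicate 3 or FcMR 24 h replicate 3 (adjusted p = 0.0337, 0.00701 and 0.0375). It also passed with a GC correction (adjusted p = 0.000166). With that correction Clec7a was called lower with FcMR at 24 h as well (-0.28, edgeR adjusted p = 0.00375).

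Clec4a2 encodes DCIR, the inhibitory member (ENSMUSG00000030148.15, chromosome 6, 123106428 to 123143999, plus strand). It was 180.0, 207 and 208 CPM in untreated cells. At 4 h it was 228, 272 and 176 CPM with isotype and 148, 135 and 138 with FcMR, and at 12 h 153, 132 and 136 with isotype and 80.1, 53.7 and 59.5 with FcMR. At 24 h isotype gave 213, 197 and 204 CPM and FcMR 96.9, 103 and 64.6. Every FcMR library was below every isotype library of its time and below every untreated library. The log2 difference was -0.68 at 4 h (SE 0.171, edgeR adjusted p = 0.0096), -1.12 at 12 h (SE 0.173, adjusted p = 0.000145) and -1.21 at 24 h (SE 0.173, adjusted p = 4.7e-05). The joint test gave an adjusted p of 0.281. The 4 h call was lost without FcMR 4 h replicate 2 or 3 or isotype 4 h replicate 2 (adjusted p = 0.0549, 0.0735 and 0.0832). It was also lost with no expression filter and using only the libraries compared (edgeR adjusted p = 0.0538 and 0.0536). Of the 31-base words in the Clec4a2 transcripts 10.3% also occur in other genes, mostly the neighbours Clec4a4 and Clec4b1, so some reads could be assigned to either.

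**Figure D2:**
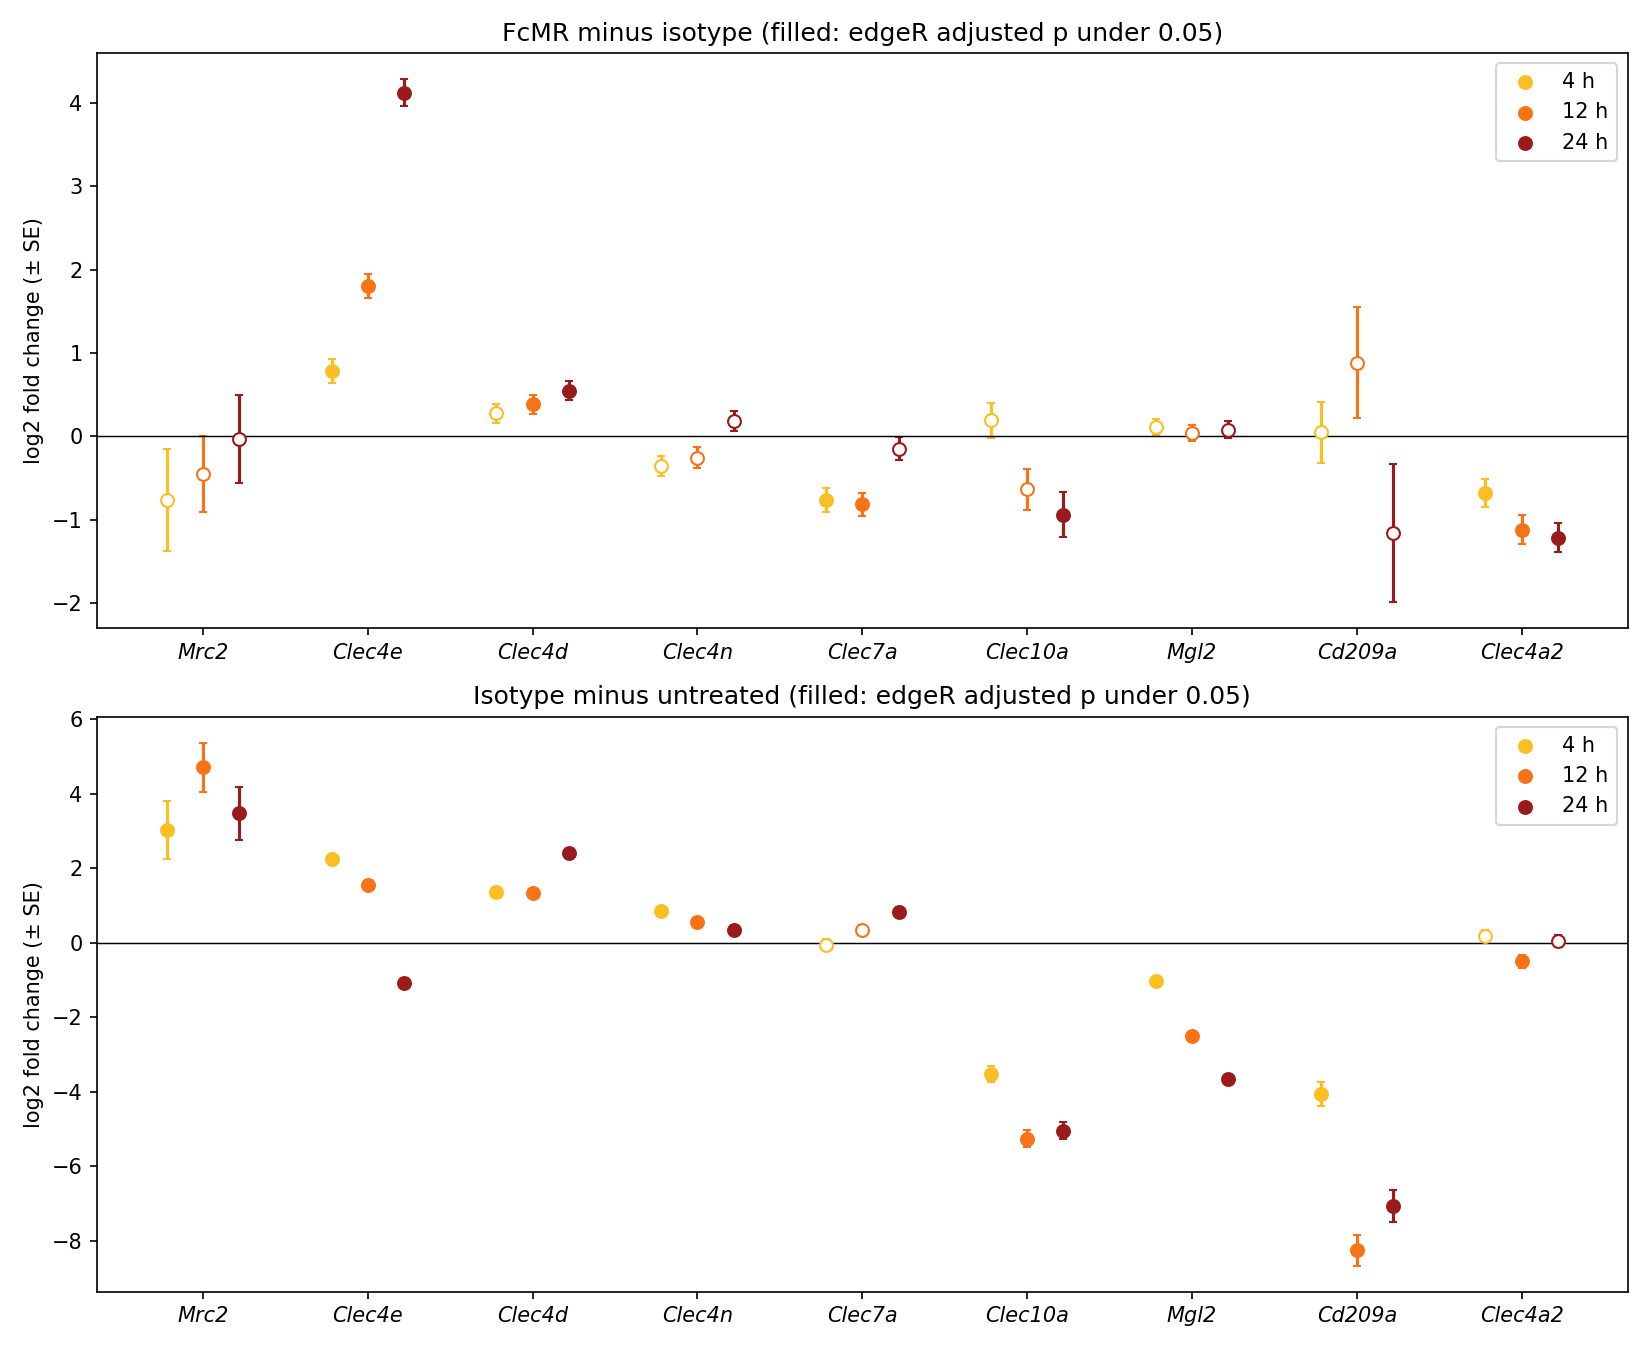
Log2 fold change of FcMR over isotype (upper panel) and of isotype over untreated (lower panel) for the 9 tested members at 4, 12 and 24 h, with bars of 1 SE. Filled points passed an edgeR adjusted p of 0.05. In the upper panel Clec4e rises from 0.78 to 4.12 and Clec4a2 lies at -0.68, -1.12 and -1.21.

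The galactose-type lectins and Cd209a fell with time in both treatments, and FcMR passed the test against the control for Clec10a at 24 h alone. Mgl2, which binds N-acetylgalactosamine (ENSMUSG00000040950.13, chromosome 11, 70130329 to 70137550, plus strand), was 1028, 1240.2 and 1119 CPM untreated. With isotype it was 584, 534 and 548 CPM at 4 h, 192, 197 and 205 at 12 h and 75.9, 91.4 and 100.4 at 24 h. With FcMR it was 589, 622 and 594 CPM at 4 h, 188, 202 and 221 at 12 h and 89.7, 91.4 and 102 at 24 h. The FcMR and isotype ranges lay close together at every time. Relative to untreated, the isotype log2 differences were -1.02, -2.51 and -3.66 (edgeR adjusted p = 2e-07, 3.04e-12 and 6.18e-14). FcMR and isotype differed by 0.12, 0.04 and 0.08 (adjusted p = 0.472, 0.87 and 0.639).

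Clec10a, encoding the galactose-binding relative MGL1 (ENSMUSG00000000318.16, chromosome 11, 70156197 to 70170834, plus strand), was 87.1, 113 and 123 CPM untreated. With isotype it was 10.1, 8.3 and 9.62 CPM at 4 h, 3.31, 2.35 and 2.65 at 12 h and 2.94, 3.86 and 2.96 at 24 h. With FcMR it was 8.22, 11.5 and 12.7, then 2.06, 1.14 and 2.09, and then 2.26, 1.62 and 1.22 CPM. Levels were far below untreated in all treated groups, and FcMR lay below isotype without overlap at 12 and 24 h. The isotype log2 differences from untreated were -3.52, -5.26 and -5.04 (edgeR adjusted p = 4.96e-10, 7.49e-12 and 2.07e-11). Between FcMR and isotype the log2 difference was 0.19 (adjusted p = 0.604), -0.64 (adjusted p = 0.0909) and -0.94 (SE 0.266, adjusted p = 0.0166) at 4, 12 and 24 h. The 24 h call was lost without FcMR 24 h replicate 2 or isotype 24 h replicate 2 (adjusted p = 0.0928 and 0.0895), with limma-voom (0.0585) and with the authors' scaling factors (log2 difference -0.35, adjusted p = 0.47). Using only the libraries compared also ended the 24 h call (edgeR adjusted p = 0.0768). Of the 31-base words in the transcripts, 14.8% of those of Clec10a and 22.6% of those of Mgl2 occur in another gene, mostly each other, so reads could be split between them.

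Cd209a, a DC-SIGN relative (ENSMUSG00000031494.7, chromosome 8, 3743397 to 3748984, minus strand), was 13.4, 19 and 15 CPM untreated. It was 1.15, 0.722 and 0.927 CPM with isotype and 0.992, 0.978 and 0.932 with FcMR at 4 h. From 12 h it was near 0 in both treatments, at 0.0561, 0 and 0.0454 CPM with isotype at 12 h and 0.0981, 0.107 and 0.129 at 24 h. FcMR gave 0, 0.175 and 0.0971 CPM at 12 h and 0, 0.0367 and 0.122 at 24 h. Untreated libraries were above all treated ones. The isotype 4 h level fell by 4.06 on the log2 scale (edgeR adjusted p = 1.78e-08). At 12 and 24 h the isotype libraries held 4 and 3 counts together against 735 untreated. Scaled to the total counts of the libraries, the ratio of untreated over isotype was 417 (95% counting interval 162 to 1540) and 158 (53.7 to 766). The interval covers counting error only. FcMR was not distinguishable from isotype at this depth (edgeR adjusted p = 0.961, 0.621 and 0.542).

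Markers of other cells were followed beside the fall of these 3 genes, and granulocyte markers were lower in all treated groups than in untreated cells. The 9 dendritic cell markers summed to 10461 to 10807 CPM in untreated cells, 5841 to 10197 in isotype at 4 h, 7455 to 7820.4 at 12 h and 4775 to 4985 at 24 h. With FcMR the sum was 10259 to 12274, 6252 to 8807 and 4125 to 5948 CPM. At 4 h the FcMR sum overlapped that of untreated cells and the isotype sum lay below it. Among these markers Cd74 and H2-Ab1 had the highest medians over the libraries (4627 and 1314 CPM). Flt3, Zbtb46 and Xcr1 had medians of 19.5, 30.3 and 1.32 CPM and so add little to the sum. The 9 granulocyte markers went from 1422 to 1651 CPM untreated to 203 to 238 with isotype and 226 to 247 with FcMR at 24 h, and the 5 mast cell and basophil markers from 52.6 to 54.3 CPM to 17.7 to 20.4 and 26.8 to 29.7. Of the 9 granulocyte markers, Elane and Mpo reached 0 in at least 1 library and the other 7 were above 0 in every library, with S100a8 from 84.5 to 483 CPM and S100a9 from 53.9 to 754. The part of these cells in the fall was not tested, and in bulk RNA fewer cells of a type and less RNA per cell cannot be told apart.

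Mrc2, the collagen receptor Endo180 (ENSMUSG00000020695.14, chromosome 11, 105292643 to 105351139, plus strand), was near 0 in untreated cells (0, 3 and 1 counts, or 0, 0.138 and 0.0817 CPM) and detectable later. With isotype it was 0.862, 0.18 and 1.16 CPM at 4 h, 2.92, 2.64 and 2.01 at 12 h and 1.28, 0.965 and 0.901 at 24 h. With FcMR it was 0.496, 0.602 and 0 CPM at 4 h, 0.954, 2.53 and 1.99 at 12 h and 0.925, 1.07 and 1.1 at 24 h. At 12 and 24 h all treated libraries were above all untreated ones, and FcMR overlapped isotype at each time. The summed counts of isotype over untreated, scaled to depth, had ratios of 7.83 (95% counting interval 2.56 to 32), 22.3 (8.59 to 82.8) and 11.3 (3.96 to 44.1) at 4, 12 and 24 h (edgeR adjusted p = 0.00496, 1.56e-05 and 0.000792). FcMR and isotype did not differ beyond their spread (edgeR adjusted p = 0.446, 0.618 and 0.983). The 8 fibroblast and stroma markers, 3 of them tested, summed to 2.35 to 4.18 CPM in untreated cells. With isotype they summed to 3.16 to 4.87, 2.52 to 3.54 and 0.965 to 1.37 CPM at 4, 12 and 24 h, and with FcMR to 5.22 to 7.52, 11.4 to 17.7 and 8.6 to 11.5. The highest level in any library was 14.5 CPM for Pdgfrb, 3.49 CPM for Dcn and 1.62 CPM for Col1a1. Their highest counts, which can come from another library, were 252, 95 and 55, while Col1a2 and Col3a1 had at most 3 and 6 counts in any library. The part of such cells in the Mrc2 levels was not tested.

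Against untreated cells, isotype at 4 h was called higher in 4 and lower in 3 of the 9 tested members, where edgeR called 35.6% of all genes (20.4% higher and 15.2% lower). At 12 h 4 were higher and 4 lower, beside 41.6% of all genes (22% higher and 19.6% lower), and at 24 h 4 and 4, beside 42.2% (21.3% higher and 20.9% lower). Groups did not overlap for 7, 9 and 8 members at 4, 12 and 24 h, where 42.4%, 61.8% and 62.7% of all genes did not overlap. Time in culture and the isotype protein cannot be told apart in this comparison, because untreated cells were taken at 0 h only. Clec4d rose by 1.37, 1.33 and 2.40 on the log2 scale (edgeR adjusted p = 4.03e-08, 4.13e-08 and 4.5e-11). Clec7a did not pass at 4 and 12 h (log2 differences -0.05 and 0.35, edgeR adjusted p = 0.809 and 0.0528). It was higher at 24 h by 0.82 (adjusted p = 0.000118). With a GC correction Clec7a passed as lower at 4 h (-0.46, adjusted p = 1.81e-05) and as higher at 12 h (0.37, adjusted p = 0.000137). The 12 h difference also passed with limma-voom (0.0465) and using only the libraries compared (0.01). Clec4a2 was lower at 12 h (-0.50, edgeR adjusted p = 0.0245), a call lost when untreated replicate 2 or 3 or isotype 12 h replicate 2 or 3 was left out, and did not pass at 4 and 24 h (0.18 and 0.04, adjusted p = 0.431 and 0.862). The FcMR and isotype comparisons share the isotype libraries with these.

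Several members lie in 1 cluster of lectin genes on chromosome 6, where the response to FcMR was mixed from gene to gene. The stretch taken reaches from 150000 bases before Clec4a2 to 150000 bases beyond Clec4e. Clec4a1, a lectin gene outside that stretch, was higher with FcMR at 4 h (log2 difference 0.508, edgeR adjusted p = 0.0157). It did not pass at 12 and 24 h (0.40 and 0.317, adjusted p = 0.0539 and 0.12). Clec4b1, which encodes another lectin, lies at -239.9 kb from the Clec4e start and was lower with FcMR at 4, 12 and 24 h (log2 differences -0.62, -1.40 and -1.99, edgeR adjusted p = 0.0187, 2.7e-05 and 1.07e-06). Its 4 h call was lost without any FcMR 4 h replicate, or without isotype 4 h replicate 1 or 2 (adjusted p = 0.0711 to 0.12). The authors' scaling factors, no expression filter and only the libraries compared also ended that call (edgeR adjusted p = 0.0586, 0.095 and 0.0643). Clec4a3, at -337.4 kb, was lower at 4 h (-0.60, adjusted p = 0.00561) and not called at 12 and 24 h. Its 4 h call was lost without FcMR 4 h replicate 3 or isotype 4 h replicate 2 (adjusted p = 0.0714 and 0.0602). No expression filter and only the libraries compared also ended it (edgeR adjusted p = 0.0525 and 0.0856). Clec4a4 did not pass at any time (-0.17, -0.20 and 0.68, adjusted p = 0.795, 0.757 and 0.161). Clec4b2 and the pseudogene Gm5883 were not tested. Within this stretch Clec4d and Clec4e, its last genes in the count table, were higher with FcMR, and Clec4a2 and Clec4b1 were lower.

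**Figure D3:**
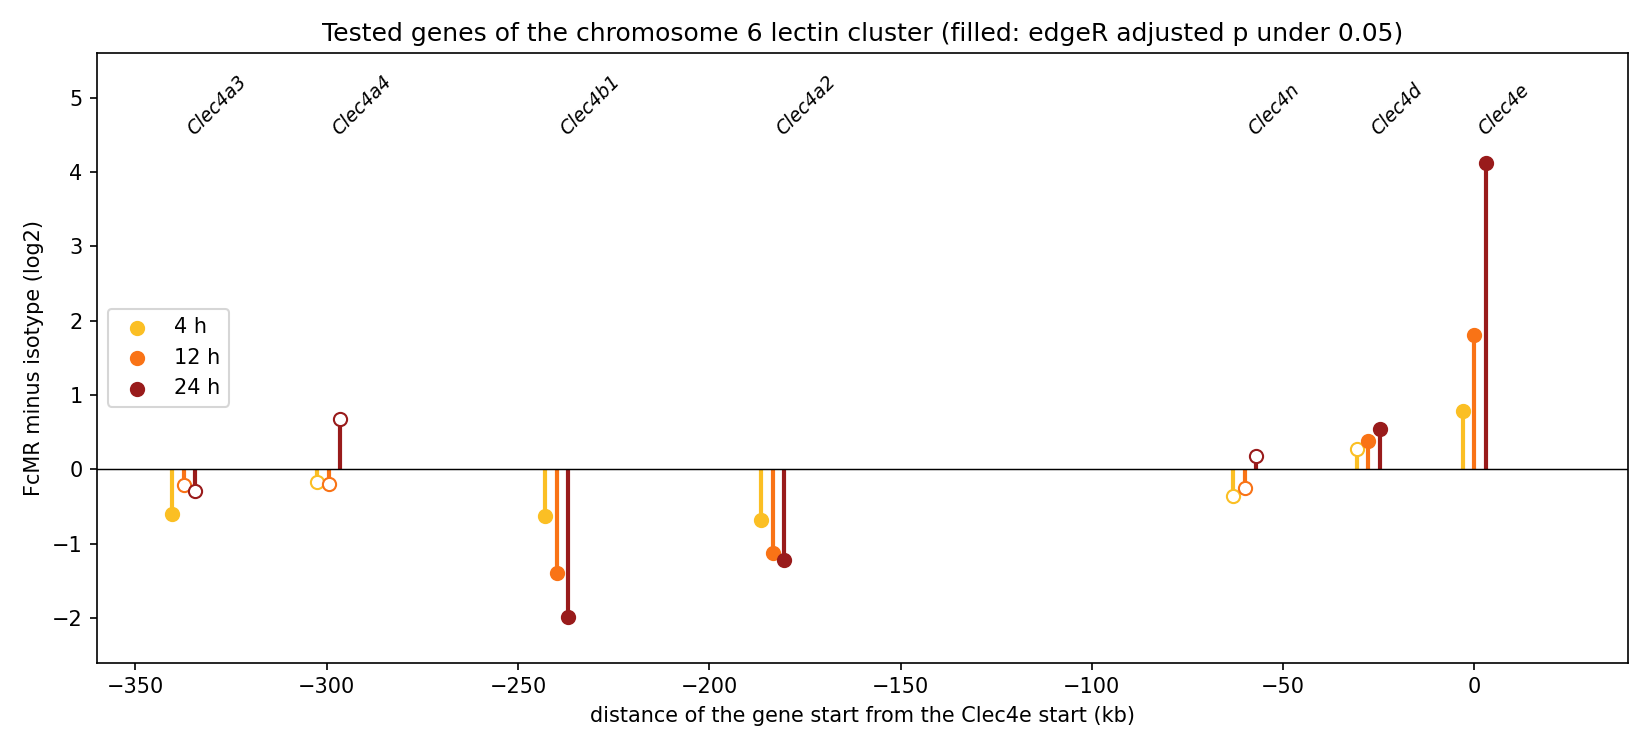
Log2 fold change of FcMR over isotype in the chromosome 6 lectin cluster, against distance in kb from the start of Clec4e. Shown are the tested genes from 150000 bases before Clec4a2 to 150000 bases beyond Clec4e. Points of the 3 times are shifted sideways by a few kb so that they do not cover one another. Filled points passed an edgeR adjusted p of 0.05. Clec4e at 0 kb reaches 4.12 at 24 h, and Clec4b1 at -239.9 kb reaches -1.99.

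Other lectin receptors, from a list of 32 genes of which 22 were tested, were called higher in 4 and lower in 5 with FcMR at 4 h, in 4 and 8 at 12 h and in 3 and 7 at 24 h. Over all genes the shares higher and lower were 8.62% and 9.13% at 4 h, 8.61% and 7.49% at 12 h and 11.4% and 9.44% at 24 h. Their median log2 differences were -0.18, -0.30 and -0.30, where the median over all genes was -0.07, -0.02 and 0.01. Cd69, an early activation lectin, was higher at each time by 1.78, 1.64 and 1.73 on the log2 scale (edgeR adjusted p = 1.48e-06, 2.67e-06 and 4.7e-06). Olr1, the receptor for oxidised LDL, was higher at 12 h by 0.54 (adjusted p = 0.0178, lost without FcMR 12 h replicate 1 or isotype 12 h replicate 1, 0.128 and 0.107) and at 24 h by 1.67 (adjusted p = 2.75e-07). At 4 h Olr1 did not pass (0.07, adjusted p = 0.811). Cd72 was higher at 4 h by 1.15 (adjusted p = 7.53e-06), did not pass at 12 h (0.32, adjusted p = 0.0797, but 0.0458 without isotype 12 h replicate 1), and was lower at 24 h (-0.64, adjusted p = 0.000783). Clec2i was lower at 4 h and 12 h (-1.16 and -0.82, adjusted p = 0.000901 and 0.00919), the 12 h call being lost without FcMR 12 h replicate 3 (0.0579). At 24 h Clec2i missed the threshold (0.47, adjusted p = 0.13, but 0.0496 without FcMR 24 h replicate 3). Clec1a was lower at 12 and 24 h (-1.86 and -1.89, adjusted p = 0.000825 and 0.000311) and did not pass at 4 h (-0.80, adjusted p = 0.16). Thbd, thrombomodulin, was lower at each time (-1.31, -1.74 and -1.65, adjusted p = 0.00551, 6.11e-05 and 7.92e-05). The 4 h call of Thbd was lost without isotype 4 h replicate 3 (adjusted p = 0.088). Thbd and Clec1a were at low levels. The means with FcMR and isotype were 0.698 and 1.66 CPM for Thbd at 4 h. For Clec1a they were 1.17 and 4.13 CPM at 12 h.

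Of 19 signalling partners of these receptors, all tested, 7 were higher and 1 lower with FcMR at 4 h, 5 and 2 at 12 h and 5 and 3 at 24 h, beside 17.7%, 16.1% and 20.9% of all genes called. The list's medians were 0.21, 0.08 and 0.07, where those of all genes were -0.07, -0.02 and 0.01. Malt1, a protease that acts with Card9 and Bcl10, was higher at each time by 0.50, 1.24 and 1.53 on the log2 scale (edgeR adjusted p = 0.0116, 2.63e-06 and 1.53e-07), the 4 h call being lost without FcMR 4 h replicate 3 (0.0517). That Malt1 call was also lost using only the libraries compared (edgeR adjusted p = 0.085). The kinase Syk was higher at each time by 0.52, 0.54 and 0.67 (adjusted p = 6.36e-05, 3.18e-05 and 1.97e-06). The kinase Src was higher by 1.33 at 4 h and 1.28 at 24 h (adjusted p = 0.0294 and 0.0319) and did not pass at 12 h (0.85, adjusted p = 0.169, but 6.14e-06 with a GC correction). Both calls were lost without several single libraries: FcMR 4 h replicate 2 or 3 and isotype 4 h replicate 1 or 2, and FcMR 24 h replicate 1 or 3 and any isotype 24 h replicate (adjusted p = 0.0537 to 0.119). Inpp5d, the inositol phosphatase SHIP1, was lower at each time (-0.74, -0.47 and -0.57, adjusted p = 9.99e-05, 0.00366 and 0.000621), and the authors' scaling factors ended its 12 h call (-0.37, adjusted p = 0.0944). Tyrobp, the adaptor DAP12, did not pass at 4 h (0.30, adjusted p = 0.354) and was lower at 24 h (-0.96, adjusted p = 0.00251). At 12 h its difference of -0.66 (adjusted p = 0.0359) lost the call without any FcMR 12 h replicate or without isotype 12 h replicate 1 or 3 (0.0545 to 0.133).

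Of 20 regulators of myeloid genes, all tested, 4 were higher and 2 lower with FcMR at 4 h, 3 and 4 at 12 h and 3 and 2 at 24 h, beside 17.7%, 16.1% and 20.9% of all genes called, and 5 of 20 at 24 h is near that share. The list's medians were 0.15, -0.10 and 0.01, where those of all genes were -0.07, -0.02 and 0.01. The NF-kappaB gene Nfkb1 was higher at each time by 0.93, 0.59 and 0.40 on the log2 scale (edgeR adjusted p = 1.77e-05, 0.00113 and 0.018), the 24 h call being lost without FcMR 24 h replicate 3 (0.0519). The authors' scaling factors also ended that call (edgeR adjusted p = 0.0613). Rel, a relative of Nfkb1, was higher at 4 h by 0.68 (adjusted p = 0.00942) and did not pass at 12 and 24 h (0.03 and 0.32, adjusted p = 0.952 and 0.22). Hif1a, the hypoxia factor, was higher at 12 and 24 h by 0.69 and 1.23 (adjusted p = 0.0025 and 6.03e-06) and did not pass at 4 h (0.37, adjusted p = 0.0858), although it did without isotype 4 h replicate 2 (0.0215) or with a GC correction (1.14e-05). Irf4 was higher at each time by 0.50, 0.60 and 0.70 (adjusted p = 0.00422, 0.000847 and 0.000191). Pparg, a nuclear receptor of lipid metabolism, was lower at each time (-0.70, -1.54 and -2.24, adjusted p = 0.00578, 3.15e-06 and 3.49e-08), the 4 h call being lost without FcMR 4 h replicate 3 (0.057) or isotype 4 h replicate 2 (0.0619). That Pparg call was also lost using only the libraries compared (edgeR adjusted p = 0.0813). Cebpa was lower at each time (-1.30, -0.79 and -0.79, adjusted p = 3.58e-05, 0.00207 and 0.00167), with a GC correction ending the 12 and 24 h calls (0.246 and 0.147). Klf4 was lower at 12 h (-1.25, adjusted p = 3.1e-06), a call that a GC correction ended (0.0874). Klf4 missed the threshold at 4 h (0.20, adjusted p = 0.384) and 24 h (-0.40), and at 24 h passed without FcMR 24 h replicate 1 (0.0314).

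Over the 21 libraries, the genes whose log2 CPM was most like that of each member included Rab32 and Cav1 for Clec4e (Pearson r of 0.978 and 0.976), Rab5if and G6pdx for Clec4d (0.961 and 0.949) and Zfand5 and Metap2 for Clec4n (0.889 and 0.885). They included AU020206 and Flvcr1 for Clec7a (0.969 and 0.954) and Rps6ka3 for Clec4a2 (0.94). For the falling lectins they were Ly86 and Vrk1 for Clec10a (0.974 and 0.973), Klk1b11 and Plet1 for Mgl2 (0.993 and 0.988) and Cks2 and Lepr for Cd209a (0.971 and 0.97). Between members, r was 0.965 for Clec10a and Cd209a and 0.861 for Clec10a and Mgl2, but 0.268 for the partners Clec4e and Clec4d and -0.644 for Clec4e and Clec4a2. These values describe the libraries, which share group, depth and GC dependence, and carry no test.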

How the data were processed

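RNA from 21 libraries of 7 groups was prepared with a TruSeq kit and sequenced as single-end reads, per the labels' protocols. The submitters' processing notes name CASAVA 1.8.2, kallisto 0.44.0 and DESeq2, and the builds mm10 and GRCm38. The deposited estimated counts per gene are whole numbers, and how they were rounded is not given in the sources used here. A second deposited table of normalized signal was used only for the authors' scaling factors. The kit does not mark strand.

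Groups and replicate numbers were read from titles. Counts were fitted with edgeR 4.0.16 in R 4.3.3 over all libraries with TMM scaling and filterByExpr at a minimum count of 10, leaving 13468 genes, and p-values were adjusted by Benjamini-Hochberg over them, with calls at 0.05. CPM are after TMM. Alternatives were DESeq2 1.42.0, limma-voom 3.58.1, other scalings and filters, a GC correction (a spline of 6 degrees of freedom per library on transcript GC), a replicate block, and each library left out. Tests were checked on counts simulated without GC dependence and with changes in the FcMR 4 h libraries only, so the check does not cover the GC differences of the real libraries. Gene IDs were matched to GENCODE M21 (23206 of 23250). Sequences are from RefSeq.

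Members and lists were chosen with earlier results of these data known. From each list the text names the 2 that rose most and the 2 that fell most among its called genes at each time (mean log2 CPM from 1 up), and for each member above that level the 2 genes most like it. Each named list gene is given at all 3 times. Some results under this rule are not reported here. The neighbours of Clec4e within the cluster were named for their position.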

Additional observations from a re-analysis of the deposited data

Results flagged for a closer look

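The difference between FcMR and isotype in Clec4e differed between the 3 times by a test of the difference itself (edgeR joint test of 2 contrasts, adjusted p = 7.5e-08). It was 0.78 on the log2 scale in the 4 h groups, 1.80 after 12 h and 4.12 after 24 h. FcMR was above isotype in 3 of 3 libraries at each time. The call held in all 29 alternatives run for this gene, with adjusted p-values from 1.33e-45 to 1.49e-06.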

How the results depend on the processing

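Clec4e was called in every alternative run (log2 difference 0.69 to 0.90, 1.65 to 1.87 and 3.93 to 4.26 at 4, 12 and 24 h), and Clec4a2 at 12 h and 24 h likewise. Genes called for FcMR at 4 h numbered 2390, and 868 using only the libraries compared, 3898 without both libraries whose title number is out of group order (FcMR 12 h replicate 1 and isotype 4 h replicate 3), 3771 with a GC correction and 3914 with a replicate block and GC correction; leaving out 1 library gave 1589 (without FcMR 4 h replicate 2) to 3151. Members called at 4 h numbered 3, and 5 with either GC correction. Genes called at 12 h rose from 2169 to 3302 with the GC correction and 3466 with block and GC correction. Isotype against untreated at 4 h had 2881 genes called using only the libraries compared. The joint test called 1484 genes, 925 with no expression filter, 2616 without both out-of-order libraries, 2947 with GC correction, 3140 with block and GC correction, and 973 (without FcMR 4 h replicate 2) to 2294 (without isotype 4 h replicate 3) with 1 library left out; it called 1 member, 2 with DESeq2, 3 without both out-of-order libraries, 4 with either GC correction and 1 to 3 with 1 library left out (2 without replicate 1 of FcMR 4, 12 or 24 h, 3 without isotype 4 h replicate 3 or FcMR 24 h replicate 3), the added members being Clec4n, Clec7a, Clec10a or, with GC correction, Clec4a2. The causes were not tested. For single genes, the text gives only some of the settings that ended or brought a call.

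Directions turned only in differences that the main test did not call. Cd209a at 4 h was -0.08 with the authors' factors and -0.04 to 0.24 with 1 library left out. Mrc2 at 24 h was 0.18 with the authors' factors, 0.26 with GC correction, 0.23 with block and GC correction and -0.12 to 0.15 with 1 library left out. Mgl2 was -0.03 to 0.09 at 12 h and -0.01 to 0.18 at 24 h with 1 library left out. For isotype against untreated, Clec7a at 4 h was 0.11 without both out-of-order libraries and -0.23 to 0.11 with 1 left out. Clec4a2 was -0.21 at 4 h, then past the threshold, and -0.03 at 24 h with either GC correction, and 0 to 0.34 and -0.02 to 0.11 with 1 left out. For FcMR, Olr1 at 4 h was -0.05 and Rel at 12 h -0.16 without both out-of-order libraries, and Rel was -0.10 with either GC correction; with 1 library left out they were -0.05 to 0.19 and -0.16 to 0.15.

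Same-numbered libraries showed little common deviation (mean correlations -0.071, 0.106 and 0.014 for FcMR and isotype at 4, 12 and 24 h, single values from -0.166 to 0.199). With 3 libraries per group that differ in GC dependence, this cannot tell whether the numbers pair the samples. With the replicate block 2541, 2290 and 2911 genes were called for FcMR, 5072, 5753 and 5849 for isotype and 1620 in the joint test, and the members called numbered 3, 4, 4, 7, 8, 8 and 1 as before. Called genes for FcMR at 4 h split into 1161 higher and 1229 lower, but 1412 and 839 with DESeq2-type (RLE) factors, 1243 and 608 with the authors' factors, 1509 and 835 with DESeq2 and 1331 and 439 with no filter, which shifted the median of all genes by 0.119. For isotype at 4 h the split of 2743 and 2049 became 1923 and 2303 with no filter, a shift of -0.104, and 2676 and 3269 with GC correction. Depth limits Mrc1, Mrc2 and Cd209a.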

Other observations

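Among the 20 regulators, 1 was called higher and 12 lower in isotype cells against untreated cells at 24 h, with a median log2 difference of -0.91 where the median of all genes was -0.04, and where edgeR called 21.3% of all genes higher and 20.9% lower. At 4 h 2 were higher and 6 lower, and at 12 h 1 and 6, where 35.6% and 41.6% of all genes were called. Of the 22 tested lectin receptors outside the members, 9 were higher and 9 lower at 4 h, 6 and 7 at 12 h and 8 and 9 at 24 h. Of the 19 signalling partners 8 were higher and 1 lower at 4 h, 9 and 4 at 12 h and 6 and 6 at 24 h. Time and the isotype protein cannot be told apart in these counts.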
